A study of Mus musculus with 2 samples.

Results

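The genes of the basement membrane and its laminin receptors were examined in single-cell RNA sequencing of dorsal root ganglia (DRG), the clusters of sensory neurons beside the spinal cord. The set holds 30 genes chosen by name, 20 for matrix proteins (laminin chains, type IV collagen chains, nidogens, perlecan and agrin) and 10 for receptors (dystroglycan, integrin subunits and Bcam). Each of the 30 symbols matched 1 of the 32285 genes in the files. The series held 2 biological replicates of L4 and L5 DRG from naive C57BL/6 female mice aged 3 months, for which the labels name no treatment, injury or engineered allele, so every comparison here is between cell types and none is between conditions. How many animals went into a sample is not given in the sources used here. The ganglia were digested with papain and collagenase and live cells were sorted before capture, so the RNA was read from cells already freed from their matrix. UMIs (unique molecular identifiers, which count captured RNA molecules) were read from the 3′ end of transcripts.

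A basement membrane is a thin sheet of matrix that covers the outer face of Schwann cells, of the satellite glial cells (SGCs) around each neuronal soma, of blood vessels and of the perineurium. Laminins, each a trimer of an α, a β and a γ chain, polymerize on the cell surface, type IV collagen trimers form a second network, and nidogens and the heparan sulfate proteoglycans perlecan and agrin tie the networks together. Cells hold the laminin network through dystroglycan, through integrin heterodimers and through Bcam, the Lutheran antigen, and in peripheral nerve loss of the laminin α2 chain or of dystroglycan is known to disturb the ensheathment of axons.

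After filtering, replicate 1 held 8423 cells and replicate 2 held 8372 (16795 in all), with a mean of 11874 UMIs and 3534 genes per cell. Clusters were named from marker genes as SGC-like (6809 cells), myelinating Schwann cell-like (3274), non-myelinating Schwann cell-like (1373), fibroblast-like (1126), mural cell-like (702), neuron-like (435), endothelial cell-like (418), macrophage-like (365) and perineurial-like (168), and the ending is left off below except for the last. The 16 marker genes that the study uses for the first 8 types were each higher in both replicates of their type than in every other type. The perineurial-like cluster was led by *Igfbp6* and *Dcn* and carried 4 perineurial and 3 fibroblast markers among its leading genes, while 2 perineurial markers, *Slc2a1* and *Moxd1*, did not lie above every other profile there in both replicates. A further 2125 cells in 2 clusters stayed unnamed. Named from the study's marker pairs alone, every cluster took a type, with 8476 SGCs and 823 macrophages. The SGC and macrophage levels below are those of the smaller groups. The 30 genes and 62 companion genes were kept out of the clustering, so no type was defined by them. The files shared 134 cell barcodes between the replicates, which 208 retained cells carried, and 161 of these 208 were among the 435 neurons (37.0% of them). The neuron profiles were also shallow, with 481347 and 540444 UMIs against 54567051 and 55234182 in SGCs, so neuron values are also given without the shared barcodes and without the upper cutoff on UMIs, which had removed 91 deep neurons.

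UMIs were summed per replicate and cell type, and each level is in CPM, which brings all profiles to a common total and corrects (TMM) for profiles that a few genes dominate. A level is written as replicate 1 and replicate 2. Differences are log2 values from edgeR's quasi-likelihood test over 17430 genes, with Benjamini-Hochberg adjusted p. The test gives no SE. The value after ± is an approximate SE, the absolute log2 value divided by the square root of the F statistic, and it is unreliable for sparse genes. CPM are compared for a gene between types and not between genes, since capture differs between transcripts. All 30 genes passed the filter on low counts.

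Mural cells, the contractile cells of the vessel wall, were the type with the highest level for 11 of the 30 genes. Perineurial-like and non-myelinating Schwann cells were highest for 4 each, myelinating Schwann cells, endothelial cells and fibroblasts for 3 each, SGCs and neurons for 1 each, and macrophages for none. For 27 of the 30 genes, both replicates of the highest type lay above every other profile, against 61.2% of all genes tested. In mural cells this held for 10 of the 30 genes, against 5.40% of all genes. The exceptions to the 27 were *Itga3*, *Itga7* and *Lamb3*. The level passed the threshold against the type next in order for 21 of the 30 genes, against 39.3% of all genes. Both the highest type and the next type were picked from these levels, so the comparison describes how far apart they lay. Between replicates the values were close: over 155 pairs of gene and type with at least 50 UMIs in each replicate, the absolute log2 ratio of the replicates had a median of 0.11 and a highest value of 1.07.

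**Figure D1:**
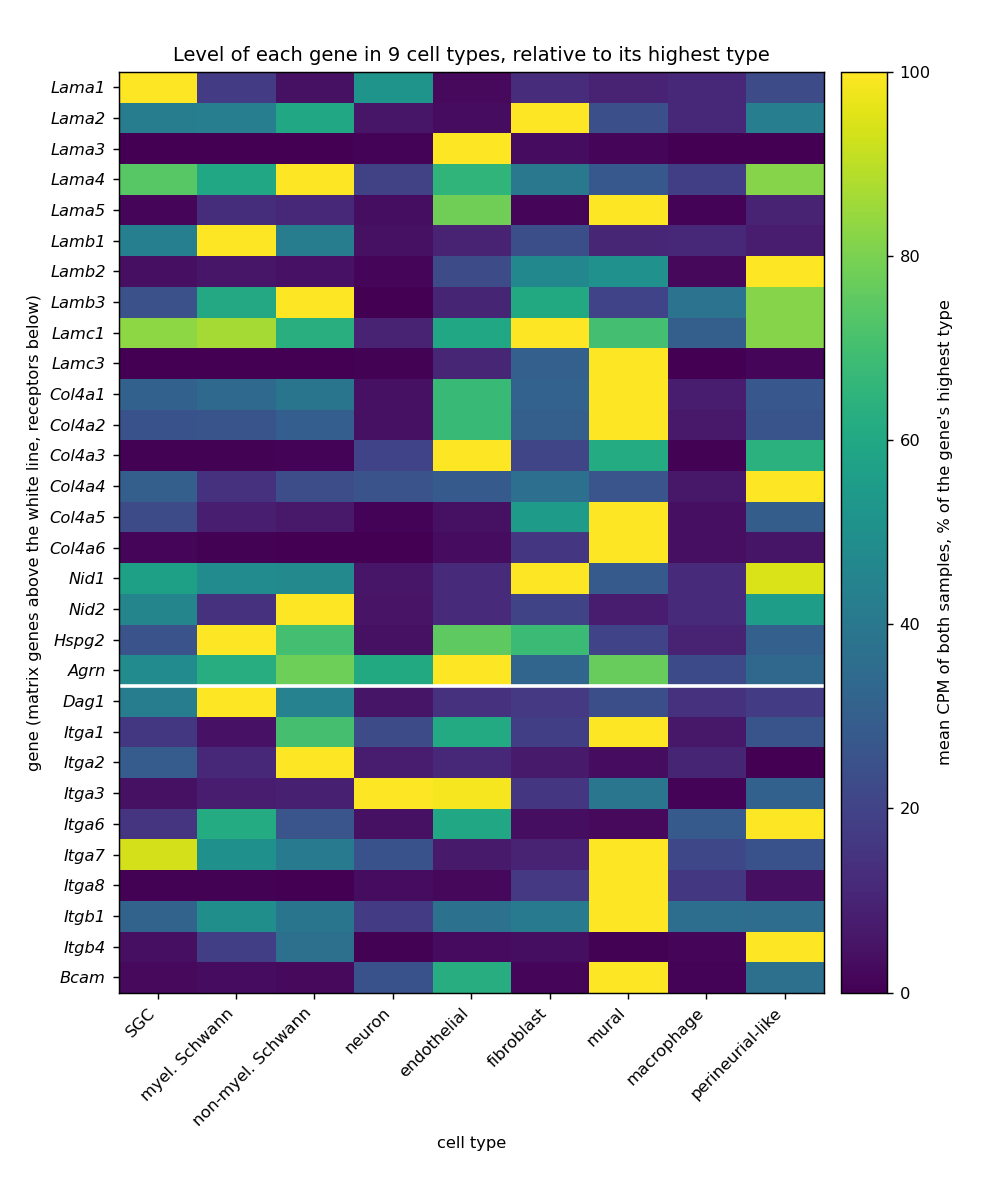
Level of each of the 30 genes (rows, matrix genes above the white line and receptors below) in 9 cell types (columns), as the mean CPM of both replicates in percent of the gene's highest type. The mural column holds the highest level for 11 genes, and the macrophage column for none.

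The 5 laminin α chains were each highest in a different cell type. Positions are those of the GENCODE M21 annotation of GRCm38, the build named for these files (mm10). *Lama2* (chr10:26980036-27619758, minus strand) encodes the α2 chain of the laminin typical of Schwann cells and muscle. Its level was 1476 and 1558 CPM in fibroblasts, 917 and 900 in non-myelinating Schwann cells, 647 and 649 in myelinating Schwann cells, 646 and 631 in SGCs and 672 and 624 in perineurial-like cells. In mural cells it was 419 and 328, in macrophages 138 and 200, in neurons 112 and 72.7 and in endothelial cells 54.5 and 45. Fibroblasts lay above non-myelinating Schwann cells by 0.74 ± 0.15 (adjusted p = 0.000491), and the glia that carry their own basement membrane all lay above both vessel cell types. The fibroblasts were not uniform: their cluster led by *Apod*, with 700 cells, had 2433 and 2289 CPM of *Lama2* without scaling between profiles, while the cluster led by *Mgp*, with 426 cells, had 311 and 292.

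*Lama4* (chr10:38965515-39110188, plus strand) encodes the α4 chain found in vessel and nerve basement membranes. Its level was 404 and 361 CPM in non-myelinating Schwann cells, 316 and 310 in perineurial-like cells, 286 and 280 in SGCs, 258 and 242 in endothelial cells and 241 and 217 in myelinating Schwann cells. The highest type did not pass the threshold against the next type, with a difference of 0.29 ± 0.14 (adjusted p = 0.127). Fibroblasts had 162 and 145 CPM, mural cells 106 and 105, and neurons and macrophages lay between 50.6 and 99.6.

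*Lama3* encodes the α3 chain best known from the epidermis. Here it was read nearly in endothelial cells alone, at 134 and 138 CPM, against 5.48 and 4.07 in fibroblasts, the next type (difference 4.86 ± 0.19, adjusted p = 1.9e-13). It had 0 UMIs in both replicates of macrophages and of perineurial-like cells. After thinning each cell to 1000 UMIs, 12.4% of endothelial cells of replicate 1 (exact binomial 95% interval 8.0 to 18.0%) and 8.49% of replicate 2 (5.11 to 13.1%) held a UMI of *Lama3*, and 64.8% did without thinning. In SGCs it was 0 of 3474 cells in replicate 1, which allows a share of up to 0.0864%, and 1 of 3334 in replicate 2, with median depths of 14886 and 15847 UMIs in SGCs and 15497 and 14874 in endothelial cells before thinning. Neither the intervals nor the limit include anything beyond counting error. The larger endothelial cluster, led by *Flt1*, had 151 and 148 CPM of *Lama3*, and the smaller, led by *Ctla2a* and with 47 cells that also held *Ccl21a* and *Mmrn1*, had 31.3 and 63.6.

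*Lama5* (chr2:180176373-180225859, minus strand) encodes the α5 chain of mature vessel basement membranes. Both vessel cell types stood apart from the rest, with 66.1 and 65.0 CPM in mural cells and 56.9 and 46.0 in endothelial cells, followed by 8.79 and 8.53 in myelinating Schwann cells and 0.958 and 1.01 in SGCs. Mural cells passed the threshold against endothelial cells narrowly, by 0.35 ± 0.14 (adjusted p = 0.0492), and this call was lost under 8 of the 14 alternatives that gave a test. Without replicate 2 the difference was 0.22. SGCs differed from myelinating Schwann cells by -3.12 ± 0.19 on the log2 scale.

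*Lama1* (chr17:67697259-67822647, plus strand) encodes the α1 chain typical of early development. It was a rare transcript, with 330 and 293 UMIs in SGCs (6.73 and 5.79 CPM). The next type was the neuron profile with 1 and 3 UMIs, so the difference of 0.91 ± 0.78 could not be resolved at that depth (adjusted p = 0.405). With the deep neurons kept, which had few UMIs of it for their depth, the difference was 3.34 (adjusted p = 8.8e-06). Against myelinating and non-myelinating Schwann cells, which had 1.43 and 0.759 and then 0 and 0.548 CPM, SGCs were higher by 2.51 ± 0.39 and 4.32 ± 0.63 on the log2 scale. *Lama1* was thus the 1 laminin chain of the set that was highest in SGCs. After thinning, 0.547% of SGCs of replicate 1 (0.330 to 0.853%) and 0.330% of replicate 2 (0.165 to 0.590%) held a UMI of it. Myelinating Schwann cells had 0.123% (0.0150 to 0.445%) and 0.122% (0.0147 to 0.439%), with overlapping intervals. In neurons it was 0 of 90 and 0 of 48 cells, which allows up to 3.33% and 6.25%, so the shares do not rank these types. The SGC clusters differed among themselves, with 9.77 and 7.24 CPM in the largest and between 2.28 and 3.18 in 2 others.

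The β chains were divided between glia and sheath cells. *Lamb1* (chr12:31265234-31329644, plus strand) encodes the β1 chain, and its level was 450 and 452 CPM in myelinating Schwann cells, 191 and 197 in SGCs and 188 and 193 in non-myelinating Schwann cells. Myelinating Schwann cells lay above SGCs by 1.22 ± 0.11 (adjusted p = 5.6e-09), and the remaining types ranged from 11.1 to 113 CPM. *Lamb2* (chr9:108479736-108490530, plus strand) encodes the β2 chain of perineurial, vascular and synaptic laminins, and it ran the other way. It had 367 and 305 CPM in perineurial-like cells, 177 and 163 in mural cells, 162 and 152 in fibroblasts and 77.6 and 75.9 in endothelial cells, while SGCs had 13.2 and 13.3 and both Schwann cell types between 14.9 and 20.7. Perineurial-like cells passed the threshold against mural cells by 0.97 ± 0.11 (adjusted p = 3.5e-07). *Lamb3* (chr1:193207699-193343878, plus strand), the β3 partner of the α3 chain in skin, had at most 13 UMIs in any profile of a named type other than SGCs and was at 3.39 and 2.96 CPM in empty droplets, above its level in every cell type. Its 8 and 6 UMIs in non-myelinating Schwann cells, the highest type, were 1.78 and 1.1 CPM.

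*Lamc1* (chr1:153218922-153332786, minus strand) encodes the γ1 chain that most laminins contain, and it was spread over all non-neuronal types. Fibroblasts had 279 and 301 CPM, myelinating Schwann cells 244 and 259, SGCs 230 and 252 and perineurial-like cells 238 and 237. The highest type did not pass the threshold against the next type (difference 0.21 ± 0.11, adjusted p = 0.125), and only macrophages (83.5 and 91.2) and neurons (19.2 and 36.4) had both replicates under 100 CPM. *Lamc3* (chr2:31887291-31946539, plus strand) encodes the γ3 chain, and mural cells held 194 and 151 CPM of it, fibroblasts 43.5 and 62.9 and endothelial cells 20.1 and 17.2. The difference of mural cells from fibroblasts was 1.68 ± 0.15 (adjusted p = 8.0e-09). The 3 glial types each lay under 0.7 CPM. Within fibroblasts the cluster led by *Apod* had 78.8 and 99 CPM of *Lamc3* and the cluster led by *Mgp* had 2 and 1 UMIs.

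**Figure D2:**
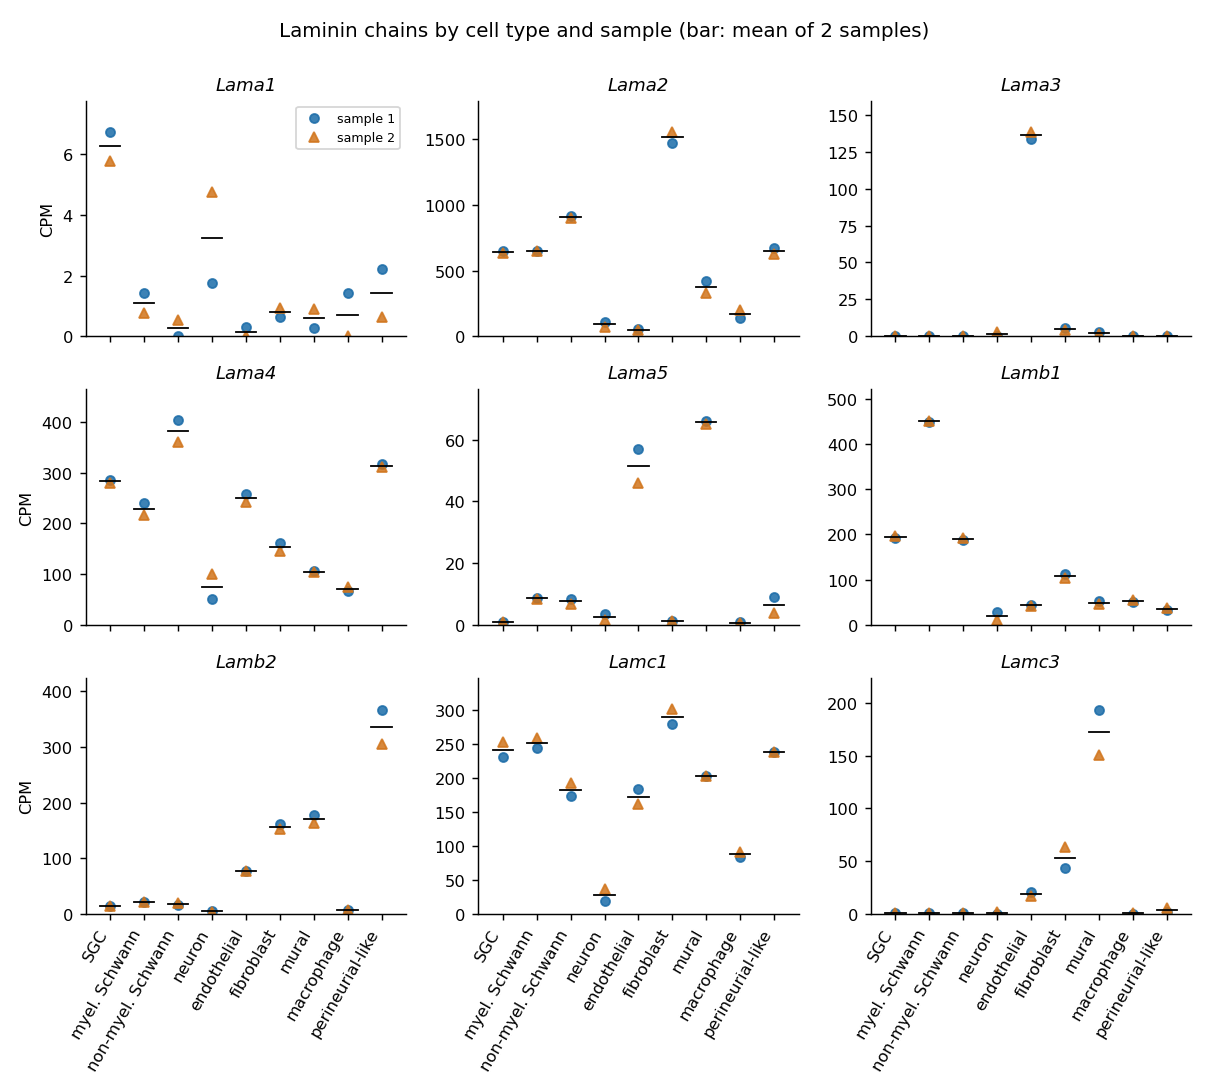
CPM (vertical axis, linear from 0) of 9 laminin chain genes in 9 cell types, with a circle for replicate 1, a triangle for replicate 2 and a bar for their mean. *Lamb1* was highest in myelinating Schwann cells at 450 and 452 CPM, *Lamb2* in perineurial-like cells at 367 and 305, and *Lama3* in endothelial cells at 134 and 138.

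Type IV collagen is built from 6 chains whose genes lie head to head in 3 pairs. In the GRCm38 annotation, *Col4a1* and *Col4a2* on chromosome 8 start within first exons that overlap by 22 bases, *Col4a3* and *Col4a4* on chromosome 1 start 71 bases apart, and *Col4a5* and *Col4a6* on chromosome X start 1308 bases apart. The 300-base promoter windows of a close pair and of a wide pair are printed to show how differently the paired genes share their control region. They run 5′ to 3′ on the strand of each gene, from RefSeq on GRCm38.p6, and capitals mark the letters CCAAT and GGGCGG on either strand (ATTGG and CCGCCC on the reverse). *Col4a1* is chr8:11312777-11313076 on the minus strand, *Col4a2* chr8:11312555-11312854 on the plus strand, *Col4a5* chrX:141475169-141475468 on the plus strand and *Col4a6* chrX:141474027-141474326 on the minus strand.
Col4a1: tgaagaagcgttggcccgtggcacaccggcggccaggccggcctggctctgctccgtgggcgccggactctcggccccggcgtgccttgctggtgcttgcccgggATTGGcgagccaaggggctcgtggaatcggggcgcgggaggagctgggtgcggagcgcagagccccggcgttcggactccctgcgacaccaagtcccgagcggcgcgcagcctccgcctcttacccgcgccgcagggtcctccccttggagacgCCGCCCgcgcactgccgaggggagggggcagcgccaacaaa
Col4a2: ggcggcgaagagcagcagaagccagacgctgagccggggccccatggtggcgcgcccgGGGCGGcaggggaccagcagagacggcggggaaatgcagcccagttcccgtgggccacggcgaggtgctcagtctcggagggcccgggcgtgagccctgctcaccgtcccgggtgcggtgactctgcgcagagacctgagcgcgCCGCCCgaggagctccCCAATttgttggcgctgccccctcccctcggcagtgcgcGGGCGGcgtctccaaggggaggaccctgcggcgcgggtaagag
Col4a5: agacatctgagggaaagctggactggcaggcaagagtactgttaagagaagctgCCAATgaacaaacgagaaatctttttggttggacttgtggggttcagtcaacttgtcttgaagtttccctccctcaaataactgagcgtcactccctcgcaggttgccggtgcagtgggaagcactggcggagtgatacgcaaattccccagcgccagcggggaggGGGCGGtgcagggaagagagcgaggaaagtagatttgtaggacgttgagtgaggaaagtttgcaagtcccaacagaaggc
Col4a6: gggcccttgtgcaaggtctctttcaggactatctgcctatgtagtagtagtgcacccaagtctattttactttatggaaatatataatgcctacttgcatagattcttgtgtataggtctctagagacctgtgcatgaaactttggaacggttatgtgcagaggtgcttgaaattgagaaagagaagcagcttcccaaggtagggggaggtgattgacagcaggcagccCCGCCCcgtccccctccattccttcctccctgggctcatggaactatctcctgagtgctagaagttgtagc
The windows of *Col4a1* and *Col4a2* shared 78 bases and held 74% and 73.7% G and C, while those of *Col4a5* and *Col4a6* shared none and held 52.7% and 48.3%. CCAAT was found in the windows of *Col4a1*, *Col4a2* and *Col4a5*, and in 37.4% of 32851 promoter windows of the same length. GGGCGG was found in all 4, with 3 copies in *Col4a2*, and in 35.7% of all windows. The copy in *Col4a1* and the last copy in *Col4a2* are the same site, read on opposite strands within the shared bases. TATAAA was in none of the 4 and in 13.6% of all windows. These are matches of letters and not measured binding sites.

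*Col4a1* and *Col4a2*, which form the trimer found in nearly all basement membranes, were both highest in mural cells and next in endothelial cells. *Col4a1* had 613 and 662 CPM in mural cells, 387 and 479 in endothelial cells and between 166 and 261 in the 3 glial types, fibroblasts and perineurial-like cells. *Col4a2* had 429 and 428 in mural cells, 273 and 308 in endothelial cells and between 106 and 133 in that same group of types. Mural cells passed the threshold against endothelial cells by 0.56 ± 0.14 for *Col4a1* (adjusted p = 0.00235) and by 0.56 ± 0.11 for *Col4a2* (adjusted p = 0.000276). The ratio of *Col4a1* to *Col4a2* UMIs stayed between 1 and 2.04 over the 18 profiles. Macrophages and neurons were lowest for both genes.

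*Col4a3* and *Col4a4*, which join *Col4a5* in the trimer known from the kidney glomerulus, did not follow each other. *Col4a3* had 38.2 and 35.1 CPM in endothelial cells, 23.5 and 21.6 in mural cells and 14.4 and 32.5 in perineurial-like cells, where the replicates were far apart, and endothelial cells did not pass the threshold against perineurial-like cells (difference 0.54 ± 0.30, adjusted p = 0.187, and from 0.11 without replicate 1 to 1.40 without replicate 2). In SGCs it came to 0.265 and 0.277 CPM, from 13 and 14 UMIs. *Col4a4* had 68.8 and 45.6 CPM in perineurial-like cells, 20.3 and 21.5 in fibroblasts and 16.7 and 18.1 in SGCs, and perineurial-like cells lay above fibroblasts by 1.39 ± 0.24 (adjusted p = 0.000196). The ratio of *Col4a4* to *Col4a3* UMIs therefore ran from 63.1 and 65.4 in SGCs through 3.32 and 2.34 in fibroblasts to 0.388 and 0.496 in endothelial cells. Within endothelial cells *Col4a3* sat in the cluster led by *Flt1*, at 43.7 and 39.0 CPM, against 2.84 and 2.89 in the cluster led by *Ctla2a*.

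*Col4a5* and *Col4a6*, whose products form the trimer known from smooth muscle, were both highest in mural cells. *Col4a5* had 84.9 and 81.8 CPM in mural cells, 43.0 and 48.6 in fibroblasts, 20.0 and 29.3 in perineurial-like cells and 18.1 and 20.0 in SGCs, and mural cells passed the threshold against fibroblasts by 0.86 ± 0.15 (adjusted p = 0.000115). *Col4a6* had 29.9 and 24.6 CPM in mural cells and 3.55 and 5.12 in fibroblasts (difference 2.63 ± 0.33, adjusted p = 3.8e-06), with 0 UMIs in neurons and in non-myelinating Schwann cells. Away from mural cells *Col4a5* was present with little *Col4a6*: the ratio of their UMIs was 2.84 and 3.33 in mural cells, 12.1 and 9.50 in fibroblasts and 38.6 and 46.1 in SGCs.

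**Figure D3:**
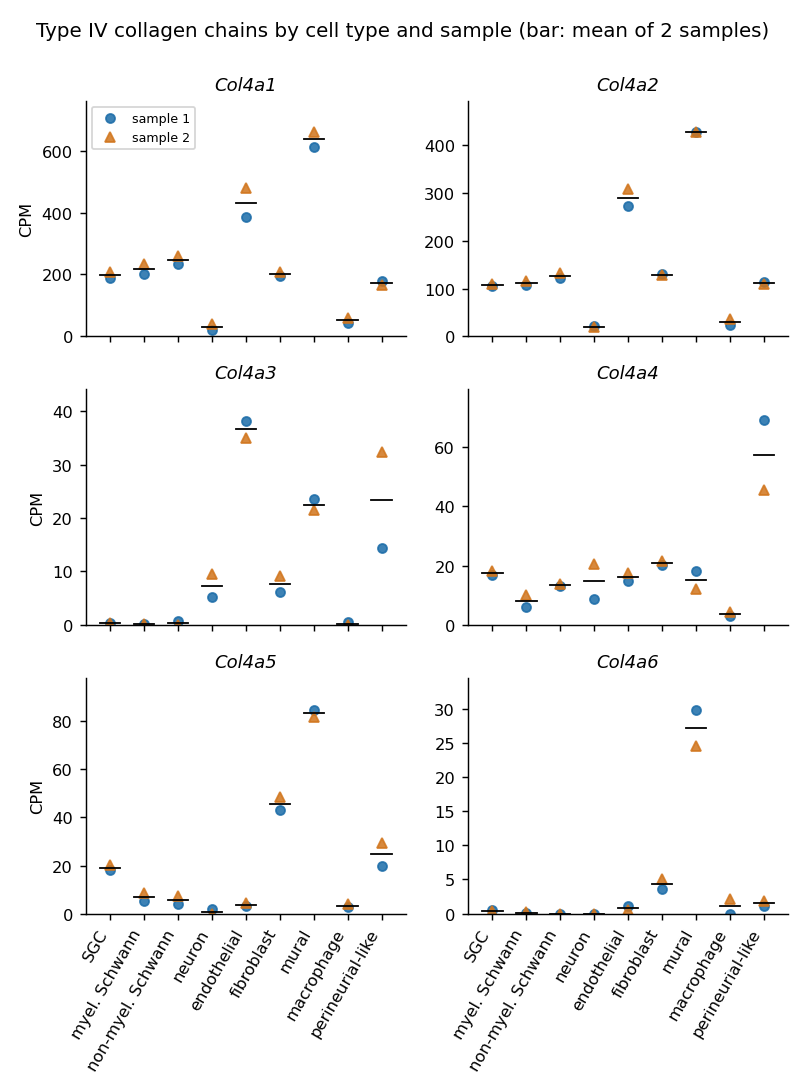
CPM (vertical axis, linear from 0) of the 6 type IV collagen chain genes in 9 cell types, each row of panels holding 1 head-to-head pair, with a circle for replicate 1, a triangle for replicate 2 and a bar for their mean. *Col4a1* and *Col4a2* were both highest in mural and next in endothelial cells, *Col4a3* was highest in endothelial and *Col4a4* in perineurial-like cells, and *Col4a6* stood at 29.9 and 24.6 CPM in mural cells against at most 5.12 elsewhere.

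The nidogens were led by cells outside the vessel wall. *Nid1* (chr13:13437551-13512269, plus strand), for nidogen 1, which bridges laminin and collagen, had 352 and 362 CPM in fibroblasts and 333 and 341 in perineurial-like cells, which did not differ past the threshold (0.08 ± 0.12, adjusted p = 0.743). The fibroblast markers that the perineurial-like cells also carried were not tested for their part in this. SGCs followed at 205 and 201, and endothelial cells had 42.3 and 45.7. *Nid2* (chr14:19751265-19811787, plus strand), for the related nidogen 2, had 146 and 141 CPM in non-myelinating Schwann cells, 69.9 and 91.1 in perineurial-like cells, 64.5 and 66.4 in SGCs and 22.4 and 18.5 in myelinating Schwann cells. Non-myelinating Schwann cells lay above perineurial-like cells by 0.80 ± 0.17 (adjusted p = 0.000832).

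*Hspg2* (chr4:137468769-137570630, plus strand) encodes perlecan, and it had 263 and 251 CPM in myelinating Schwann cells, 210 and 177 in endothelial cells, 182 and 169 in fibroblasts and 182 and 179 in non-myelinating Schwann cells. The difference of myelinating Schwann cells from endothelial cells was 0.41 ± 0.12 (adjusted p = 0.00695), while SGCs had 66.8 and 64.3 CPM and mural cells 53.1 and 49.7. *Agrn* (chr4:156165290-156197488, minus strand) encodes agrin, which also organizes the neuromuscular junction. It had 43.8 and 37.2 CPM in endothelial cells, 33.5 and 29.8 in non-myelinating Schwann cells and 28.8 and 33.3 in mural cells, against 12.6 and 13.7 in fibroblasts, 20.0 and 7.49 in perineurial-like cells and 6.64 and 11.5 in macrophages, with a difference between the first pair of types of 0.36 ± 0.17 (adjusted p = 0.0850), and this difference passed the threshold under 4 of the 14 alternatives that gave a test. Empty droplets had 38 and 36.9 CPM of *Agrn*, within the range of the cells, and with the estimated free RNA subtracted the difference was 0.36 (adjusted p = 0.0989).

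*Dag1* (chr9:108204634-108263958, minus strand), for dystroglycan, the receptor that links laminin to the dystrophin complex, was highest in myelinating Schwann cells at 887 and 924 CPM. Non-myelinating Schwann cells had 424 and 375, SGCs 392 and 377, mural cells 236 and 195, and the other non-neuronal types between 115 and 175, so the 3 glial types stood above the rest. Myelinating Schwann cells lay above non-myelinating Schwann cells by 1.18 ± 0.15 (adjusted p = 1.9e-06). At 1000 UMIs per cell, 53.8% of myelinating Schwann cells of replicate 1 (51.4 to 56.3%) and 53.3% of replicate 2 (50.9 to 55.8%) held a UMI, and 93.5% did without thinning. In macrophages the thinned share was 4.50% and 1.82%.

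*Itga1* (chr13:114953096-115101964, minus strand) and *Itga2* (chr13:114833081-114932100, minus strand) encode the α1 and α2 integrin subunits, which bind collagens and laminins as partners of β1. *Itga1* had 415 and 403 CPM in mural cells, 308 and 269 in non-myelinating Schwann cells, 229 and 272 in endothelial cells, 65.9 and 68.1 in SGCs and 21.1 and 19.8 in myelinating Schwann cells. Mural cells passed the threshold against non-myelinating Schwann cells by 0.50 ± 0.16 (adjusted p = 0.0185), a call lost under 4 of the 14 alternatives that gave a test. The neighbouring gene *Pelo* lies on the same strand within *Itga1* and reads of the 2 genes may be hard to tell apart. *Itga2* had 125 and 107 CPM in non-myelinating Schwann cells, 35.4 and 32.4 in SGCs and 14.3 and 11.5 in myelinating Schwann cells, and perineurial-like cells had 0 and 1 UMI. Non-myelinating Schwann cells lay above SGCs by 1.77 ± 0.14 (adjusted p = 5.1e-09).

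*Itga6* (chr2:71745616-71858416, plus strand) and *Itgb4* (chr11:115974709-116008412, plus strand) encode the subunits of α6β4, the laminin receptor of hemidesmosomes, which Schwann and perineurial cells are also known to carry. *Itga6* had 405 and 621 CPM in perineurial-like cells, 303 and 328 in myelinating Schwann cells, 285 and 328 in endothelial cells, 159 and 132 in macrophages and 127 and 144 in non-myelinating Schwann cells. The difference of perineurial-like from myelinating Schwann cells was 0.72 ± 0.19 (adjusted p = 0.00479), and 0.42 without replicate 2. *Itgb4* had 536 and 522 CPM in perineurial-like cells, 192 and 201 in non-myelinating Schwann cells, 97.8 and 97.4 in myelinating Schwann cells, 21 and 23.5 in SGCs and 3.60 in both replicates of mural cells. Perineurial-like cells lay above non-myelinating Schwann cells by 1.43 ± 0.17 (adjusted p = 9.5e-07). Where the types with *Itga6* are set beside those with *Itgb4*, macrophages and most endothelial cells had the first with little of the second. The endothelial cluster led by *Ctla2a* was the exception, with 96.7 and 75.1 CPM of *Itgb4* against 5.47 and 10.5 in the cluster led by *Flt1*. After thinning, 47.5% of perineurial-like cells of replicate 1 (34.3 to 60.9%) and 38.5% of replicate 2 (29.4 to 48.3%) held a UMI of *Itgb4*, while 0 of 387 mural cells did in replicate 1, which allows up to 0.775%, and 0.317% in replicate 2.

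*Itga7* (chr10:128933818-128958282, plus strand) encodes the α7 subunit, a laminin receptor known from muscle. It had 113 and 128 CPM in mural cells and 110 and 115 in SGCs, and these 2 types did not differ past the threshold (0.10 ± 0.11, adjusted p = 0.502). Myelinating Schwann cells had 58.3 and 62.8, non-myelinating Schwann cells 44.6 and 54.3, and endothelial cells 7.70 and 9.88. Empty droplets had 113 and 99 CPM, near the level of SGCs, and with the estimated free RNA subtracted the difference was 0.10 (adjusted p = 0.52). *Itga8* (chr2:12106632-12301922, minus strand) encodes the α8 subunit, which binds nephronectin and other ligands of the matrix. It had 78.3 and 65.3 CPM in mural cells, 10.6 and 13.1 in fibroblasts and 10.4 and 12.6 in macrophages, and every other type lay under 5 CPM. Mural cells lay above fibroblasts by 2.58 ± 0.21 (adjusted p = 2.3e-09).

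*Itga3* (chr11:95044474-95076801, minus strand) encodes the α3 subunit, a receptor for laminins with α3 and α5 chains. Neurons had 12 and 16 UMIs of it (20.9 and 25.3 CPM) and endothelial cells 24.6 and 21.1 CPM, so the profiles of both types overlapped (difference 0.03 ± 0.35, adjusted p = 0.99). *Itgb1* (chr8:128685654-128733200, plus strand) encodes the common β1 subunit and was read in every type, at 836 and 832 CPM in mural cells, 421 and 409 in myelinating Schwann cells, between 264 and 355 in the other non-neuronal types and 145 and 144 in neurons. Mural cells lay above myelinating Schwann cells by 1.01 ± 0.10 (adjusted p = 4.1e-08).

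*Bcam* (chr7:19756131-19771016, minus strand), for the Lutheran antigen, a receptor for the laminin α5 chain, had 326 and 300 CPM in mural cells, 209 and 182 in endothelial cells, 124 and 107 in perineurial-like cells and 113 and 44.3 in neurons. Every other type lay under 11 CPM. Mural cells passed the threshold against endothelial cells by 0.68 ± 0.14 (adjusted p = 0.000559). The 2 types with most *Bcam* were also the 2 with most *Lama5*, while perineurial-like cells and neurons had *Bcam* with at most 8.88 CPM of *Lama5*.

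**Figure D4:**
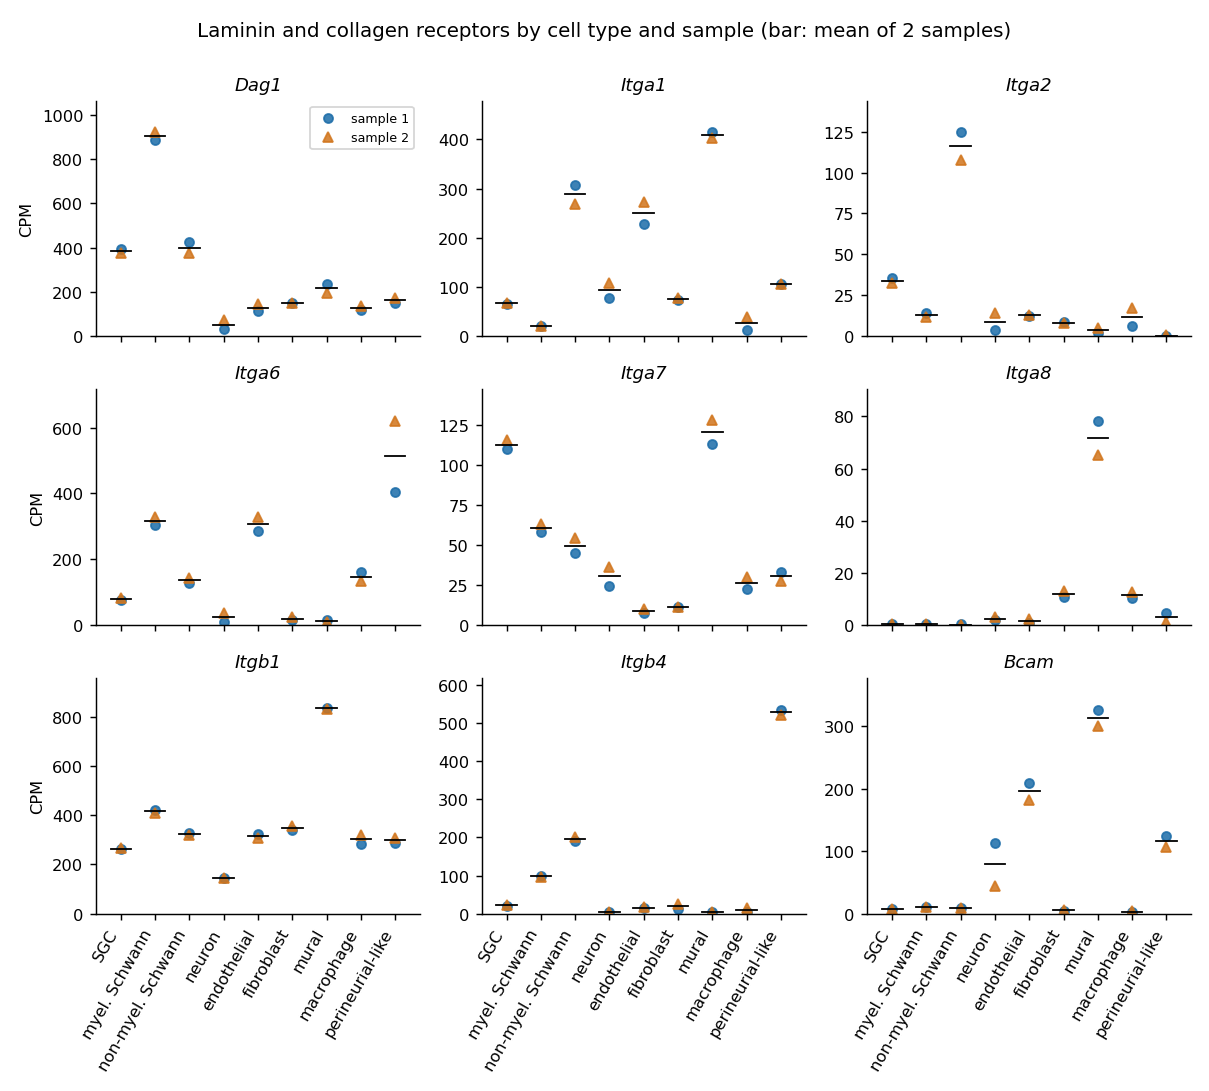
CPM (vertical axis, linear from 0) of 9 receptor genes in 9 cell types, with a circle for replicate 1, a triangle for replicate 2 and a bar for their mean. *Dag1* was highest in myelinating Schwann cells, *Itgb4* in perineurial-like cells and *Itga8*, *Itgb1* and *Bcam* in mural cells, and the replicates were apart for *Itga6* in perineurial-like cells (405 and 621) and *Bcam* in neurons (113 and 44.3).

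Each type was then tested against the average of the other 8, all weighted alike. Mural cells were higher for 17 of the 30 genes, or 56.7%, against 21.2% of all genes tested, and lower for 7, against 15.0%. The genes that were lower were *Lama4*, *Lamb1*, *Nid2*, *Hspg2*, *Itga2*, *Itga6* and *Itgb4*. Non-myelinating Schwann cells were also higher for 17 (background 19.6%) and lower for 5 (13.6%). Perineurial-like cells were higher for 13 (15.0%) and lower for *Lamb1*, *Agrn* and *Itga2* only (12.2%). Fibroblasts were higher for 14 (25.7%) and lower for 7 (14.6%), of which 13 of the higher genes were among the 20 for matrix and 1, *Itga8*, among the 10 for receptors. Endothelial cells were higher for 14 (25.9%) and lower for 9 (22.0%), and myelinating Schwann cells for 14 (27.1%) and 9 (21.4%).

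SGCs were higher for 11 of the 30 genes, or 36.7%, near the 31.2% of all genes, and lower for 10 (19.9%). The genes higher in SGCs were *Lama1*, *Lama2*, *Lama4*, *Lamb1*, *Lamc1*, *Col4a5*, *Nid1*, *Nid2*, *Dag1*, *Itga2* and *Itga7*. Macrophages were higher for *Itga6* and *Itga8* only (25.1% of all genes were higher) and lower for 22 (20.0%), among them 16 of the 20 matrix genes.

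Neurons were higher for *Bcam* and *Itga3* (18.5% of all genes) and lower for 15 (19.1%). Without the cells that carried a shared barcode the count of higher genes was also 2, beside 3013 of all 17415 genes tested. Without the upper cutoff on UMIs it was 5, beside 6733 of 17884, and with DESeq2 it was 4, beside 4071 of 17430. The reported fit had 3233 of 17430 genes higher, so calls over all genes rose under the last 2 settings as well. Before scaling between profiles, neurons had 135 and 51.6 CPM of *Bcam*, which became 140 and 37.9 without the shared barcodes and 125 and 102 without the cutoff. The same values of *Itga3* were 24.8 and 29.5, then 21.3 and 31.6, then 26.1 and 26.5. *Lama2*, at 132 and 84.8 in the reported neuron profiles, came to 32.7 and 29 without the cutoff. The reported profiles joined 416 cells of a shallow cluster, with a median of 828 UMIs before filtering, and 19 cells of the deep cluster. The deep neurons that the cutoff had removed had 125 and 108 CPM of *Bcam*, 26.3 and 26.2 of *Itga3* and 24.1 and 23.0 of *Lama2*.

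The median log2 difference of the 30 genes in these tests was 1.05 in mural cells, 0.59 in perineurial-like cells, 0.55 in non-myelinating Schwann cells, 0.50 in endothelial cells, 0.34 in myelinating Schwann cells, 0.28 in fibroblasts, -0.05 in SGCs, -1.54 in macrophages and -1.99 in neurons. Over all genes tested the medians lay between -0.28, in neurons, and 0.07. Of the 30 genes, 3 had 0 UMIs in both replicates of some type (*Lama3*, *Lamb3* and *Col4a6*), and with such types set to the level of 3 UMIs the median was 0.53 in mural cells, 0.53 in perineurial-like cells, 0.42 in non-myelinating Schwann cells, 0.31 in endothelial cells, 0.30 in myelinating Schwann cells, 0.16 in fibroblasts, -0.16 in SGCs, -1.43 in macrophages and -1.35 in neurons. The median of mural cells therefore depended on how those 3 genes were treated. The mural count of 17 includes *Lama3* and *Col4a6*. The 14 in fibroblasts also include both, and the 17 in non-myelinating Schwann cells include *Lamb3*. *Lama3* had 5.48 and 4.07 CPM in fibroblasts and at most 2.77 in mural cells, against 5.25 and 6.96 in empty droplets. *Lamb3* had 1.78 and 1.1 CPM in non-myelinating Schwann cells, against 3.39 and 2.96 in empty droplets. *Col4a6* lay above empty droplets (1.85 and 0.522) in fibroblasts, at 3.55 and 5.12. The counts were not taken again without these genes.

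**Figure D5:**
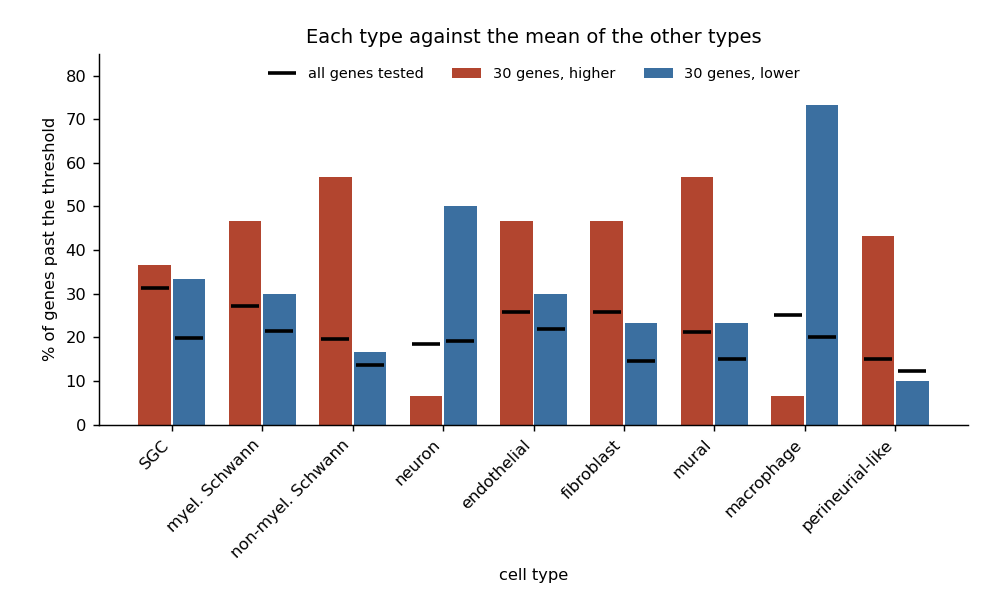
Percent of the 30 genes (bars, higher in red and lower in blue) that passed the threshold in each cell type, tested against the average of the rest, with the percent of all 17430 genes tested as a black line over each bar. Mural and non-myelinating Schwann cells had 56.7% of the genes higher, and macrophages had 73.3% lower.

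Cells that share a basement membrane were compared directly. Endothelial and mural cells lie on the same vessel membrane, and 15 of the 30 genes were higher in mural cells (21.9% of all genes) and 8 in endothelial cells (20.0%), so that 23 of 30 differed against 41.9% of all genes. *Itga8* differed by -5.55 ± 0.32 (endothelial minus mural), *Col4a6* by -5.01 ± 0.50, *Col4a5* by -4.48 ± 0.26, *Itga7* by -3.76 ± 0.17, *Lamc3* by -3.22 ± 0.19 and *Lama2* by -2.91 ± 0.18. In the other direction *Lama3* was higher in endothelial cells by 5.97 ± 0.25, *Itga6* by 4.65 ± 0.27, *Hspg2* by 1.91 ± 0.14 and *Lama4* by 1.25 ± 0.14. The integrin α subunits were thus divided, with *Itga6*, *Itga3* and *Itga2* higher in endothelial cells and *Itga8*, *Itga7* and *Itga1* higher in mural cells.

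Fibroblasts and mural cells, both of mesenchymal kind, differed for 25 of the 30 genes, against 36.3% of all genes. In mural cells 15 were higher (16.7% of all genes), among them *Bcam* with a difference of -5.95 ± 0.21 (fibroblast minus mural) and *Lama5* with -5.74 ± 0.22. The type IV collagen genes other than *Col4a4* were all among these 15, with -1.67 ± 0.14 for *Col4a1* and -1.73 ± 0.11 for *Col4a2*. In fibroblasts 10 were higher (19.6%), among them *Lama2* by 2.02 ± 0.16, *Nid1* by 1.82 ± 0.13 and *Hspg2* by 1.77 ± 0.14.

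The glial types were compared in pairs. Between SGCs and myelinating Schwann cells, 7 genes were higher in SGCs (26.4% of all genes) and 9 in myelinating Schwann cells (24.1%), so that 16 of 30 differed against 50.5% of all genes, near the background. *Itgb4* differed by -2.13 ± 0.17 (SGC minus myelinating Schwann), *Itga6* by -1.99 ± 0.19 and *Hspg2* by -1.97 ± 0.12, while *Itga1* and *Nid2* were higher in SGCs by 1.71 ± 0.18 and 1.68 ± 0.14.

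Between SGCs and non-myelinating Schwann cells, 4 genes were higher in SGCs (16.6%), namely *Lama1*, *Col4a5* (by 1.69 ± 0.23), *Itga7* (by 1.18 ± 0.12) and *Lamc1* (by 0.40 ± 0.11), and 12 were higher in non-myelinating Schwann cells (13.9%), against 30.5% of all genes in either direction. *Itgb4* differed by -3.14 ± 0.17 (SGC minus non-myelinating Schwann), *Itga1* by -2.11 ± 0.17 and *Itga2* by -1.77 ± 0.14. Between the Schwann cell types, 6 genes were higher in myelinating cells (16.7%) and 7 in non-myelinating cells (18.4%), a total of 13 of 30 against 35.2% of all genes. The collagen-binding subunits differed most, *Itga1* by -3.82 ± 0.19 (myelinating minus non-myelinating) and *Itga2* by -3.17 ± 0.17, followed by *Nid2* at -2.81 ± 0.15, while *Lamb1*, *Itga6* and *Dag1* were higher in myelinating cells by 1.24 ± 0.11, 1.22 ± 0.19 and 1.18 ± 0.15.

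Of 62 companion genes in 4 lists, 60 passed the filter on low counts. The percent after a count of these genes is the share of all genes tested in the same type and direction. Among 22 partners and assembly factors of basement membranes, 19 were higher (25.7%) and 1 lower (14.6%) in fibroblasts than on average elsewhere. The leading genes were *Col15a1*, for a collagen at the outer face of basement membranes, at 563 and 500 CPM (higher by 3.90 ± 0.07), *Plod2*, a lysyl hydroxylase for collagen, at 279 and 240 (3.80 ± 0.13), *Loxl2*, a lysyl oxidase that crosslinks type IV collagen, at 39.6 and 39.4 (3.51 ± 0.16), and *Serpinh1*, the collagen chaperone of the endoplasmic reticulum, at 874 and 866 (2.57 ± 0.08). The same list had 11 genes higher in non-myelinating Schwann cells (19.6%) and 10 each in SGCs (31.2%) and mural cells (21.2%). Lower were 2 in non-myelinating Schwann cells (13.6%), 8 in SGCs (19.9%) and 7 in mural cells (15.0%).

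Among 13 enzymes that build the laminin-binding glycan of dystroglycan, 7 were higher in SGCs (31.2%) and 7 in fibroblasts (25.7%). In myelinating (27.1%) and in non-myelinating Schwann cells (19.6%) 5 were higher. In endothelial cells 7 were lower (22.0%) and in macrophages 8 (20.0%). *Pomk*, a kinase that phosphorylates the growing glycan, had 14.4 and 13.8 CPM in SGCs, above the average of the rest by 1.15 ± 0.14.

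Among the partners of the receptors inside the cell and in its membrane, 18 of 19 were tested. Of these, 15 were higher in mural cells (21.2%) and 2 lower (15.0%). In non-myelinating Schwann cells 14 were higher (19.6%) and in myelinating Schwann cells 13 (27.1%). In fibroblasts 4 were higher (25.7%) and 12 lower (14.6%). *Lims1*, an adaptor of integrin-linked kinase, had 623 and 546 CPM in mural cells (higher by 1.83 ± 0.08), *Fermt2*, the integrin activator kindlin 2, had 478 and 464 (1.36 ± 0.07), and *Tln1*, for talin, had 277 and 269 (1.32 ± 0.08). *Sgca*, a sarcoglycan of muscle, had 22.4 and 14.1 CPM in mural cells.

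Of 8 genes for turnover of the matrix, 7 were tested, and 5 were higher in fibroblasts (25.7%) and 5 in perineurial-like cells (15.0%). *Mmp2*, a gelatinase that cleaves type IV collagen, had 256 and 306 CPM in fibroblasts (higher by 5.88 ± 0.16), *Timp1*, an inhibitor of such proteases, had 81.2 and 67.8 (3.80 ± 0.13), and *Timp2*, a partner of *Mmp2*, had 605 and 491 (1.00 ± 0.07).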

How the data were processed

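Single-cell libraries of L4 and L5 DRG from 2 replicates were made by the authors with a 10x Genomics 3′ kit, and the deposited files hold raw UMI counts per gene and barcode from Cell Ranger on mm10, per the submitters' processing notes, with all barcodes kept. The annotation used is not given in the sources used here. Totals were 119101743 and 128668771 UMIs, of which 90.1% and 86.5% fell in cells.

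Cells were called again from the counts by a procedure like that of Cell Ranger, and barcodes under 300 genes, over 46419 UMIs or over 22.1% mitochondrial UMIs were removed, as was a cluster of likely doublets. The cells were normalised and clustered with Seurat (version 5.3.0, SCTransform, sctransform version 0.4.2, resolution 0.8), with the 30 genes and 62 companion genes left out of the variable genes. Clusters were named from marker lists. UMIs were summed per replicate and type (profiles of at least 20 cells), the 17430 genes with 10 or more counts in 2 or more of the 18 profiles were kept, and edgeR (version 4.0.16, TMM, quasi-likelihood test, 1 fit over all types) gave each difference, with Benjamini-Hochberg adjustment at 0.05 over all genes tested. Prior counts were 0.125. DESeq2 (version 1.42.0) was an alternative.

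The fit was tested on simulated data with 200 changed genes of 17430 per type. The changed genes were drawn from those with a mean count over 20, and all other genes had the same share in every type. The rates below therefore do not cover rarer genes, nor data such as these in which many genes differ between types. It recovered 49% of 2-fold and 73% of 4-fold changes in neurons, and in the other types 64% (perineurial) to 94% (fibroblast) of 2-fold and 94 to 100% of 4-fold changes. False calls made up 11.6% of calls in SGCs, 9.47% in non-myelinating and 8.96% in myelinating Schwann cells, above the 5% aimed at, 5.26% in mural cells, and 0.813% to 4.95% in the remaining types. Replicates were separate samples. The p-values measure the spread between replicates of a type, estimated for each gene over all types together. Profiles of the same replicate were treated as independent in that fit. Cells were thinned to 1000 UMIs for shares of cells, which left out shallower cells, among them 297 of 435 neurons. The 30 genes, the companion lists and the marker lists were chosen with earlier results of these data known. All 30 genes are described. For each companion list, the type with most genes higher was taken. Of the genes past the threshold there that lay above all other profiles, up to 4 with the largest difference were named. Where types tied, the first in a fixed order was taken. This was SGCs over fibroblasts for the dystroglycan enzymes and fibroblasts over perineurial-like cells for turnover. Gene positions came from GENCODE M21, and 32158 of 32285 gene identifiers were found there. Of the 30 genes, 20 had a RefSeq promoter window. Of the 30 genes, 13 overlap a gene on the opposite strand and 3 a gene on the same strand. Alternatives covered cell calling, resolution, cluster naming, doublets, free RNA, normalisation, the filter, the reference of the comparison, a replicate block and leaving out a replicate.

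Same-numbered profiles come from 1 dissociation. Their departures from the mean of both replicates correlated weakly, with a median r of 0.0500 over 36 pairs of types and a value over 0.1 in 5, so the replicate block was kept as an alternative.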

Additional observations from a re-analysis of the deposited data

How the results depend on the processing

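Of 60 differences recomputed (each gene's highest type against the next type and against the mean of the rest), none that had passed the threshold reversed. Those between *Itga3* in neurons and endothelial cells, *Itga7* in mural cells and SGCs, *Lamb3* in non-myelinating Schwann and perineurial-like cells and *Nid1* in fibroblasts and perineurial-like cells, which had not passed it, changed sign under some alternative. The other differences between 2 types and those of companion genes were not recomputed gene by gene. Among the counts of genes per type and per pair, 198 values stayed within 1.5 times the reported one and 4 did not. With all other retained cells summed into 1 profile as the reference, 9 genes in place of 14 were higher in myelinating Schwann cells and 11 in place of 17 in non-myelinating Schwann cells, and the cause was not tested. With that reference 5471 of 18627 genes were higher in myelinating and 2856 of 18751 in non-myelinating Schwann cells. The count in myelinating Schwann cells was thus near the share of all genes, and that in non-myelinating Schwann cells stayed above it. In neurons DESeq2 gave 4 in place of 2, and leaving out the upper cutoff on UMIs, an alternative chosen after seeing the data, gave 5. Over all genes the higher calls in neurons were 3233 in the reported fit, 4071 with DESeq2 and 6733 without the cutoff. The replicate block changed 1 of 60 named differences (adjusted p = 0.0543 for Lamb3 in non-myelinating Schwann cell against the mean of the other types) and none of 14 counts by over 1.5 times. With 1 replicate left out each type had 1 profile, so the 60 differences were recomputed without a test, and 11 without replicate 1 and 18 without replicate 2 moved by more than the spread between replicates. That spread came from the same replicates and was taken without TMM. These counts therefore cannot show how far a difference depends on 1 replicate.

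The share of higher calls among all genes moved from 61.1% to 43.9% in SGCs with DESeq2 and to 47.4% with library size alone, and from 55.8% to 45.2% in myelinating Schwann cells with DESeq2. In neurons it moved from 49.2% to 60.9% and 63.7% with the same alternatives, and with library size alone from 59.1% to 69.3% in non-myelinating Schwann cells, from 55.7% to 36.3% in macrophages and from 55.2% to 66.6% in perineurial-like cells. The median of all genes shifted by -0.28 in neurons in the reported fit and by -0.37 in macrophages with library size alone. Neurons could not be recovered when cells were called from UMI totals alone, nor perineurial-like cells at resolution 0.4 or from the study's marker pairs alone. Shares of cells with a UMI moved by more than the spread between replicates in 30 of 30 genes when thinned to a greater depth and in 29 of 30 without thinning.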

Other observations

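The largest cluster without a name, 1667 cells led by *Pou3f1*, a transcription factor of promyelinating Schwann cells, held 1189 and 1279 CPM of *Lama2*, 864 and 859 of *Dag1* and 310 and 356 of *Lamb1* without scaling between profiles. In the same measure the named SGCs had 581 and 578, 353 and 345, and 172 and 180 CPM. The study's marker pairs alone placed this cluster with SGCs, so SGC levels of these genes depended on leaving it out.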
